A study of Mus musculus with 4 samples.

Results

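Memory-like CD8 T cells were a small population within splenic B220+IgD- cells, sorted from mice 10 days after they received sheep red blood cells as antigen. They were selected on measured values, as barcodes outside the deposited table of germinal center (GC) B cells with mitochondrial genes under 8% of UMIs (unique molecular identifiers, the tags by which captured transcripts are counted), at least 2 UMIs of Cd3d, Cd3e and Cd3g together, at least 2 of Cd8a and Cd8b1 together, none of Cd4, at most 2 of Cd79a and Cd79b together, and at least 2 of Ccl5. The rule chose 925 of 39009 barcodes, with 165, 223, 202 and 335 in the WT, C, K and CK libraries. CD8 cells that met the same limits but had no Ccl5 UMI, here called Ccl5-zero cells, served as the comparison and numbered 3679.

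Each library came from 1 mouse on the C57BL/6J background, aged 8 weeks, and all 4 mice carried 1 Cγ1-cre allele (Cg1Cre+/-). WT had no floxed allele, C was Crebbp fl/+, K was Kmt2d fl/+ and CK carried both floxed alleles. Cγ1-cre acts in B cells activated toward class switching, so T cells are not its intended target. The mice are described as female, and the transcripts go against this in each library. The Y-linked genes Ddx3y, Eif2s3y, Kdm5d and Uty together had 106 to 129 UMIs in memory-like cells of a library and 4729 to 6388 in all its barcodes, whereas Xist, made from the inactive X chromosome, had none in memory-like cells and 0 to 13 in all barcodes. There was 1 mouse for each genotype, so differences between genotypes have no replicate check and no test was run on them, whereas the 2 classes of CD8 cells occurred in every mouse and were compared over the 4 libraries. Each interval given is at the 95% level and covers counting error alone.

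CD8 T cells recognise peptides on MHC class I. Naive CD8 T cells circulate between blood and lymphoid organs under the chemokine receptor CCR7. After priming by antigen, or in response to IL-15 in unimmunized mice, some become memory cells that store Ccl5 transcripts, carry the IL-2 and IL-15 receptor beta chain (Il2rb) and the chemokine receptor CXCR3, and respond faster than naive cells. Central and virtual memory cells express the T-box factor Eomes, whereas effector memory cells and terminal effectors carry granzymes, KLRG1 and CX3CR1.

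The label was checked first against its markers, as a description, since they were used to choose the population. Nkg7, a cytotoxic granule protein, stood at 1140.1, 1107, 1410.4 and 1272 CPM (counts of UMIs of a gene scaled to the same total in each sum of cells) in memory-like cells of WT, C, K and CK, and at 629, 667, 741 and 698 CPM in Ccl5-zero cells. Ly6c2, which encodes a Ly6C surface protein, stood at 767, 815, 933 and 774 CPM in memory-like cells and at 200.5 to 213 CPM in Ccl5-zero cells. Cxcr3 ranged from 177 to 213 CPM against 24.2 to 32.6 CPM, and Il2rb from 141 to 168 CPM against 25.6 to 33.1 CPM. The 4 markers were thus higher in memory-like cells in each library, with no overlap between the classes. The share of all genes tested whose class ranges lie apart is not given, so a lack of overlap is a description, here and below. At least 1 of these 4 markers was detected in all memory-like cells but 1 cell each in WT, C and K. Most Ccl5-zero cells had at least 1 as well, since none was detected in 14.6%, 21.1%, 18.4% and 24.6% of them in WT, C, K and CK. Nkg7 was detected in 73.8% of Ccl5-zero cells.

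Ccl5 itself, the chemokine RANTES, had a median of 21, 15, 17 and 12 UMIs per memory-like cell of WT, C, K and CK. Single cells ranged from 2 to 454 UMIs. Among annotated GC B cells, which should lack it, at least 1 Ccl5 UMI was found in 3.34%, 3.18%, 2.44% and 3.42% in the same order, and at least 2 in 0.0815% to 0.343%. Median UMIs of those B cells were 4931, 4053, 4759 and 3653. At the edge of the rule, 305 CD8 cells had 1 Ccl5 UMI and were left out, 71 had 2, 64 had 3, and 790 had at least 4. The median over libraries of Ly6c2 was 209 CPM in cells with none, 446 CPM with 1, 865 CPM with 2, 863 CPM with 3 and 798 CPM with at least 4. Ccr9, a receptor of naive CD8 cells, had a median of 117 CPM at none and 65.7 CPM at 1, and was not detected in any library at 2 or 3. Ccr7 did not fall in steps, with medians of 277 CPM at none, 218 at 1, 404 at 2, 207 at 3 and 137 at least 4. At 2 it rested on 16 to 21 UMIs a library, and was above its level at none in WT, C and K but below it in CK.

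**Figure D1:**
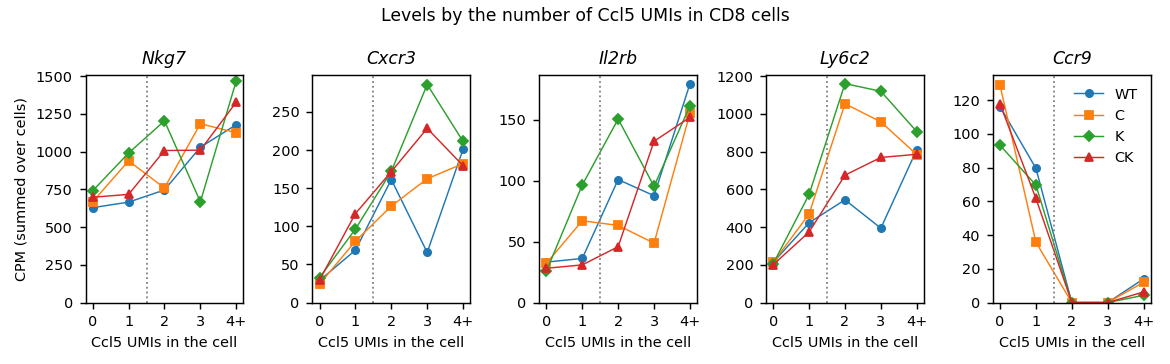
Each panel plots the level of 1 gene, in CPM, in CD8 cells grouped by their number of Ccl5 UMIs, with 1 line per library, and the dotted line marks the limit of the rule. Ly6c2 and Cxcr3 are higher and Ccr9 is lower at 2 UMIs than at 0 in each of the 4 libraries.

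Memory-like cells made up 18.5% of CD8 cells in WT (interval 16.0 to 21.2), 17.7% in C (15.6 to 19.9), 20.9% in K (18.4 to 23.6) and 18.7% in CK (16.9 to 20.6). The 4 intervals overlap. Of all barcodes with CD3 transcripts and few Cd79 UMIs they were 11.3%, 11.9%, 12.1% and 10.9%, again with overlapping intervals. These shares are those of a B220+IgD- gate, not of the spleen, and how T cells passed a gate for B cells was not tested.

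Memory-like cells held more UMIs than Ccl5-zero cells. Their medians were 4366, 3376, 3762 and 2712 UMIs in WT, C, K and CK, against 3348, 2398, 2826.5 and 1991 in Ccl5-zero cells. The ratio was 1.35 ± 0.0446 (SD, n = 4 libraries) and above 1 in 4 of 4 libraries. A two-sided exact sign-flip permutation test gave a p of 0.13, the smallest that 4 libraries allow. The classes were set by Ccl5 UMIs, and a deeper cell is more likely to reach the limit of the rule. The ratio and its p are thus a description, and whether depth differs apart from the rule was not tested. CD8 cells with 1 Ccl5 UMI lay between the classes, at medians of 3805, 2933.5, 3360 and 2233 UMIs in WT, C, K and CK. The share of memory-like cells depended on depth: with each cell thinned to 1000 UMIs and the limits on transcripts applied again it was 12.4%, 10.8%, 15.1% and 11.6%, with 156 of 10024 barcodes that had CD3 transcripts left out as shallower.

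Across the 4 libraries, memory-like cells differed from Ccl5-zero cells in many genes that the rule did not use. UMIs were summed per library and class and tested with edgeR's quasi-likelihood test, with the mouse as a block. Of 8478 genes tested, 598 were higher (7.05%) and 396 lower (4.67%) in memory-like cells at an adjusted p under 0.05. Of all genes tested, 12.1% were higher and 15% lower in each of the 4 libraries, and of the called genes 513 of the 598 and 368 of the 396 were. The fitted spread between libraries was close to counting noise. The p-values and the standard errors of log2 fold changes thus follow mainly from the number of UMIs. The p-values therefore say little of how regularly the classes, both chosen on values of the same cells, differed over these mice. They are no evidence that the classes are distinct cell types. With DESeq2, 268 genes were higher and 92 lower, and with cells thinned to 1000 UMIs the numbers were 221 and 144, with 4 memory-like and 11 Ccl5-zero cells too shallow to enter. Of the genes described in the following paragraphs, Bach2, Tcf7, Il2rg, Socs3, Itgal, Lag3, Top2a, Ifit3, Gbp2, Zfp36, Cd74 and Ighm were not called by DESeq2.

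Among genes chosen for the size of their change, with at least 100 CPM in one class, the most increased were the granzymes Gzma and Gzmm, the calcium-binding protein S100a6, Ctla2a, the integrin beta 1 chain Itgb1, Ifitm10, the large scaffold protein Ahnak, the lectin Lgals1, Pglyrp1 and the focal adhesion protein Zyx. The most decreased were Hba-a1, Ccr9, Igfbp4, Ramp1, Rgcc, Selenop, Dapl1, Rflnb, Gm12840 and Tspan32. S100a6 stood at 357, 314, 398 and 548 CPM in memory-like cells of WT, C, K and CK and at 11.6, 9.53, 14.0 and 22.1 CPM in Ccl5-zero cells. Its log2 fold change was 4.85 with a standard error of 0.10. Ctla2a, a cysteine protease inhibitor of activated T cells, stood at 279.6, 401, 414 and 363 CPM against 40.4, 35.8, 60.1 and 39.0 CPM, a log2 fold change of 3.12 with a standard error of 0.08. Both genes lay far above the Ccl5-zero range in every library, and they were detected in 35.5% and 53.1% of memory-like cells.

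**Figure D2:**
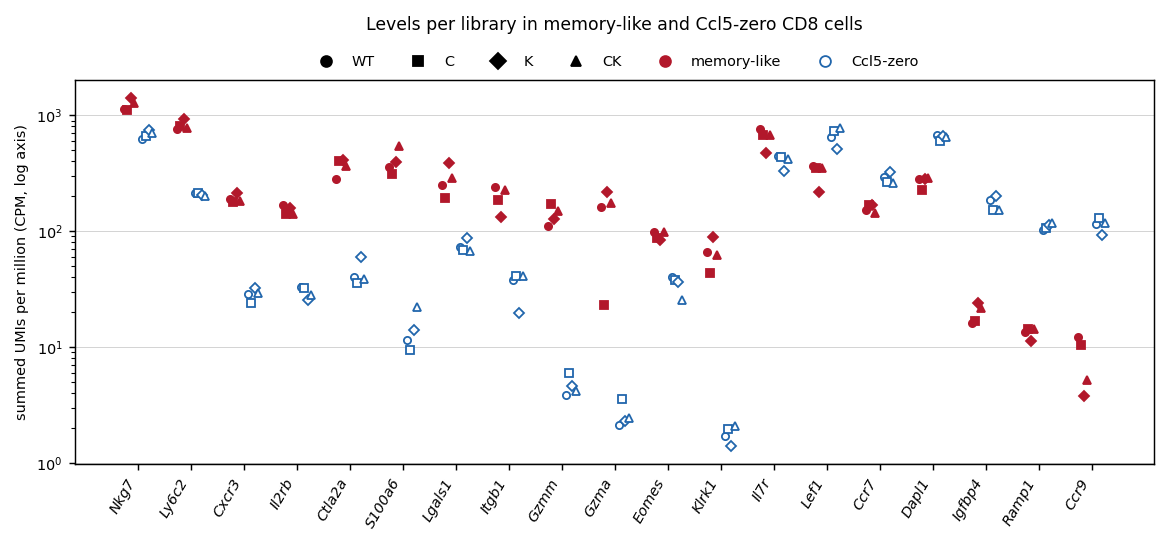
Points are levels of 19 genes in CPM on a log axis, 1 point per library and class, with filled red symbols for memory-like and open blue symbols for Ccl5-zero cells. For genes from Nkg7 to Il7r the red points lie above the blue, and for genes from Lef1 to Ccr9 they lie below.

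The shares over all genes tested, 7.05% higher and 4.67% lower, are the background of each list count given from here on. Genes of the naive program were lower as a group, with exceptions. Of 16 genes, all of which were tested, 10 were lower, 1 was higher and 5 did not pass, with a median log2 fold change of -0.40 beside a median near 0 (-0.0017) over all genes tested. Ccr9, the receptor for CCL25, stood at 12.2, 10.3, 3.80 and 5.17 CPM in memory-like cells and at 116, 129, 93.2 and 118 CPM in Ccl5-zero cells, a log2 fold change of -3.84 with a standard error of 0.19. Igfbp4, an insulin-like growth factor binding protein, stood at 16.3, 16.8, 24.1 and 21.7 CPM against 185, 151.4, 199.97 and 151 CPM, a log2 fold change of -3.05. Both were low in memory-like cells of each library, and Ccr9 was detected in 1.84% of these cells against 22.7% of Ccl5-zero cells.

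The transcription factor genes of the naive list moved less. Lef1 was lower, at 321 ± 68.4 CPM against 666 ± 112 CPM (SD, n = 4 libraries), and so was Bach2, at 24.5 ± 6.03 CPM against 40.7 ± 5.23 CPM. Tcf7, which encodes TCF-1, was lower by a small amount, with a log2 fold change of -0.21, and was not called without the K library (-0.17). The lymph node homing receptor Ccr7 stood at 152, 168, 169 and 145 CPM against 291, 263, 323 and 262 CPM, a log2 fold change of -0.80. The class ranges of Ccr7 do not overlap. S1pr1, Klf2, Satb1 and Foxo1 were among those that did not pass, although Foxo1 was called lower without the WT library (-0.37), and Klf2 and Satb1 without the C library (-0.10 and -0.22). Il7r, the IL-7 receptor alpha chain, was the 1 member that was higher, at 763, 679, 476 and 671 CPM against 448, 435, 331 and 419 CPM.

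Of 17 cytotoxic genes, 13 were higher, none was lower, 2 tested genes did not pass and 2 (Ifng and Ccl3) were too low to be tested. A gene that is nearly absent from Ccl5-zero cells entered the test through the memory-like class alone, so the list median of 2.18 is a description of those that passed. Gzmm stood at 109.9, 172, 128 and 149.9 CPM against 3.87, 5.96, 4.66 and 4.21 CPM, a log2 fold change of 4.94 with a standard error of 0.16, and was detected in 26.5% of memory-like cells. Prf1, which encodes perforin, was higher by less, at 75.3 ± 14.6 CPM against 45.1 ± 5.28 CPM. Ctsw and the chemokine genes Xcl1 and Ccl4 were also higher, with log2 fold changes of 0.90, 2.18 and 2.99. Xcl1 was more variable among Ccl5-zero cells, where it stood at 44.5 CPM in C and at 4.73 to 9.13 CPM in the other libraries, and 5 cells held 53.6% of its UMIs there.

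Gzma, granzyme A, was unlike Gzmm in being carried by few cells. It stood at 160.2, 23.3, 217 and 176 CPM in memory-like cells of WT, C, K and CK and at 2.15, 3.58, 2.33 and 2.46 CPM in Ccl5-zero cells. The classes did not overlap. The log2 fold change of Gzma was 5.74, with a standard error of 0.18 that follows from UMI counts more than from spread between mice. The 477 Gzma UMIs in memory-like cells came from 45 of the 925 cells, and 7 cells held 50% of them. By contrast, 65 cells held 50% of the 460 Gzmm UMIs. The low level in C came from 4 cells with 18 UMIs, beside 6 cells with 118 UMIs in WT. Gzmb and Gzmk were found in 26 and 51 memory-like cells, and were higher at log2 fold changes of 3.31 and 6.45. Their Ccl5-zero levels rested on 17 and 3 UMIs over the 4 libraries.

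The memory-like cells with a Gzma UMI were compared with the others as a description, a split chosen after its values were seen. Klrg1, a receptor of terminal effector cells, was detected in 28.9% of the 45 Gzma cells (interval 16.4 to 44.3) and in 0.682% of the 880 others (0.251 to 1.48). Cx3cr1, the fractalkine receptor of effector cells, was detected in 9 of the 45 (9.58% to 34.6%) against 0.568% (0.185 to 1.32). Ccr7 was detected in 13.3% (5.05 to 26.8) against 38.1% (34.8 to 41.4). Gzmm and Eomes were found at like shares in both, at 26.7% against 26.5% and at 22.2% against 25.3%. The label markers Ly6c2 and Cxcr3 were detected less often in Gzma cells, at 60% against 82.2% and at 28.9% against 46.6%. Median UMIs were 2601 in Gzma cells and 3285.5 in the others, so the higher shares of Klrg1 and Cx3cr1 were found in the shallower cells. Fewer UMIs also lower detection, so the smaller shares of Ccr7, Ly6c2 and Cxcr3 lie in the direction of depth, and their cause was not tested.

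By library, Klrg1 was detected in 2 of 6 Gzma cells in WT, 0 of 4 in C, 6 of 14 in K and 5 of 21 in CK, and in 1 of 159, 1 of 219, 2 of 188 and 2 of 314 of the others. Ccr7 was detected in a smaller share of Gzma cells than of the others in each library, at 0 of 6 against 68 of 159 in WT, 1 of 4 against 87 of 219 in C, 3 of 14 against 81 of 188 in K and 2 of 21 against 99 of 314 in CK. Cx3cr1 was detected in 0 of 6 Gzma cells against 1 of 159 others in WT, 1 of 4 against 1 of 219 in C, 4 of 14 against 0 of 188 in K and 4 of 21 against 3 of 314 in CK, so the larger share in Gzma cells was found in C, K and CK. The count of Gzma cells in C allows little to be said of that library.

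**Figure D3:**
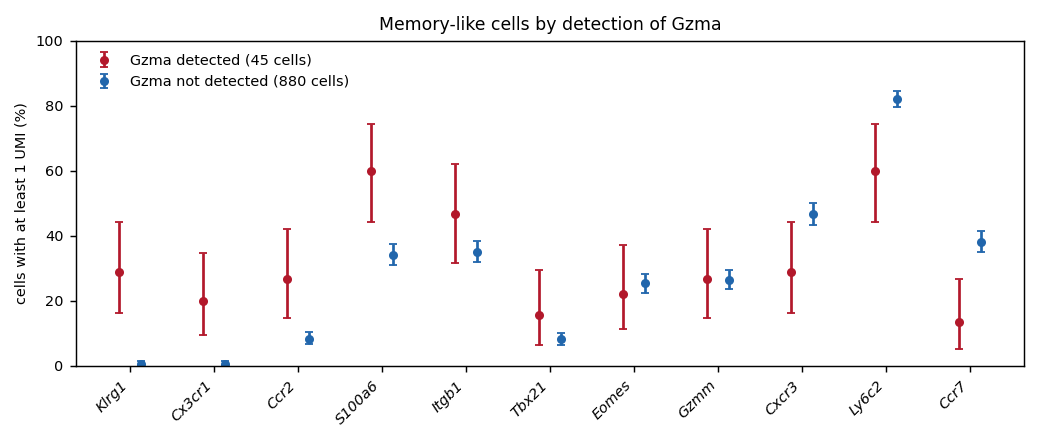
Points are the share of memory-like cells with at least 1 UMI of each gene, in percent, for the 45 cells with a Gzma UMI (red) and the 880 without (blue), pooled over the 4 libraries, and bars are exact 95% binomial intervals. Klrg1 and Cx3cr1 are found in a larger share of cells with Gzma, Ccr7 more often in cells without it, and Eomes and Gzmm at like shares.

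Of 18 effector genes, 14 were higher, none was lower, 2 did not pass and 2 were too low to be tested. Tbx21, which encodes T-bet, a T-box factor of effector cells, stood at 27.1, 14.2, 32.9 and 35.2 CPM against 0.430, 1.19, 3.73 and 2.46 CPM. The chemokine receptor gene Ccr2 was at 30.8 ± 3.77 CPM against 0.853 ± 0.776 CPM. Itgb1 stood at 242, 188, 132 and 226 CPM against 37.9, 40.9, 19.6 and 41.4 CPM, and Lgals1 at 248, 193, 384 and 289 CPM against 73.6, 69.1, 86.7 and 68.1 CPM. No class ranges overlapped for these genes. Klrg1 and Cx3cr1 were higher too, but rested on 19 and 14 of the memory-like cells. Genes nearly absent from Ccl5-zero cells, Klrg1 and Ccr2 among them, again entered the test through the memory-like class alone, so the count of higher genes is a description. Cxcr6 and Itga4 did not pass, with log2 fold changes of 0.24 and -0.19.

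Of 16 genes of central and virtual memory cells, 10 were higher, 1 was lower, 3 did not pass and 2 were too low to be tested. Eomes stood at 99.1, 86.6, 83.6 and 99.2 CPM in memory-like cells and at 40.4, 38.1, 36.8 and 25.6 CPM in Ccl5-zero cells, a log2 fold change of 1.46 with a standard error of 0.12. It was detected in 25.2% of memory-like and 6.01% of Ccl5-zero cells. Cd44, the hyaluronan receptor that marks antigen-experienced T cells, stood at 31.2, 28.5, 48.2 and 41.4 CPM against 7.75, 5.96, 8.86 and 5.62 CPM. The IL-18 receptor chains Il18r1 and Il18rap were higher at log2 fold changes of 1.71 and 3.24, and the survival factor Bcl2 at 0.57. Il18rap had 131 UMIs in memory-like and 43 in Ccl5-zero cells. It entered the test mainly through the memory-like class, so its call and fold change are a description. Il2rg, the common cytokine receptor gamma chain, was the 1 member that was lower, at -0.22. Of the 14 genes of IL-2 and IL-15 signalling, Jak1, Bcl2 and Pim1 were higher, Socs3 and Il2rg were lower, 7 did not pass and 2 were too low to be tested. Over all genes tested, 7.05% were higher and 4.67% lower. Il2rg was not called without the CK library (-0.20), nor Socs3 without the WT library (-0.37).

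Receptors of natural killer (NK) cells differed widely in level. Of 14 in the list, 10 were higher, none was lower, Tyrobp did not pass, and Ncr1, Klrb1c and Klra9 were too low to be tested. Klra1, Klra3, Klra6, Klra7, Klrc1, Klrc2, Klre1 and Klrk1 had 31 to 214 UMIs in memory-like cells and 0 to 19 in Ccl5-zero cells. They thus entered the test through the memory-like class alone, and the count of higher genes and their fold changes are descriptions. Without the WT library Tyrobp was called higher (1.14). Klrk1, which encodes NKG2D, stood at 66.5, 44.0, 90.0 and 62.0 CPM against 1.72, 1.99, 1.40 and 2.11 CPM, a log2 fold change of 5.13 with a standard error of 0.24, and was detected in 11.6% of memory-like cells. Klra1, an inhibitory Ly49 receptor, had 31 UMIs in memory-like cells and none in Ccl5-zero cells, and was at least 31.1-fold higher against a floor of 3 counts over the Ccl5-zero class. Klrd1, or CD94, was abundant in both classes, at 351 ± 34.4 CPM against 268 ± 16.9 CPM. Ncr1 and Klrb1c, which define NK cells in this strain, stood at 0 to 3.80 CPM and at 1.03 to 14.9 CPM in memory-like cells. Without cells that carried a UMI of Ncr1, Klrb1c, Trdc or Zbtb16, 589 genes were higher and 379 lower.

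Transcripts of the gamma-delta T cell receptor were found in a minority of cells, counted together with Cd163l1, which is not a T cell receptor gene. They are together called gamma-delta transcripts here. Tcrg-C1, Tcrg-C2, Tcrg-C4 and Cd163l1 had 17, 66, 24 and 37 UMIs in memory-like cells and 2 or 3 in Ccl5-zero cells, and thus entered the test through the memory-like class alone. Trdc had 83 UMIs in memory-like and 93 in Ccl5-zero cells. A UMI of Trdc, Tcrg-C1, Tcrg-C2, Tcrg-C4 or Cd163l1 was found in 83 memory-like cells (8.97%) and in 65 Ccl5-zero cells (1.77%). All of these 83 cells also had a UMI of an alpha or beta receptor constant gene (Trac, Trbc1 or Trbc2). So did 837 of the 842 memory-like cells without a gamma-delta transcript (99.4%), so this does not set the 83 cells apart. Without the cells that carried such a gamma-delta transcript, 566 genes were higher and 360 lower, and 540 and 336 of them were called with those cells included.

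**Figure D4:**
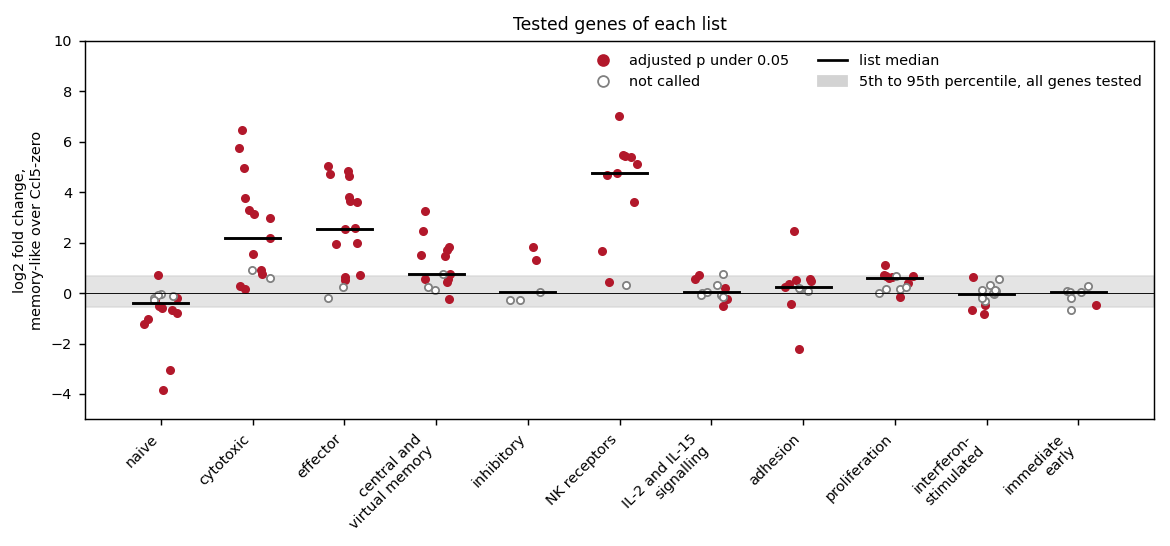
Each point is the log2 fold change of 1 tested gene, memory-like over Ccl5-zero, filled where its adjusted p was under 0.05, with the median of each list as a black bar. The grey band, from -0.56 to 0.67, holds the middle of all genes tested from their 5th to their 95th percentile, and most cytotoxic, effector and NK receptor genes lie above it.

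Genes of inhibitory receptors and of exhaustion were mostly not measurable. Of 12, 7 were too low to be tested, among them Pdcd1, Havcr2, Tigit and Ctla4, Cd160 and Lag3 were higher and the other 3 did not pass. Lag3 was not called without the WT library (1.73). It had 25 UMIs in memory-like and 21 in Ccl5-zero cells and entered the test mainly through the memory-like class, so its call is a description. Cd160 stood at 29.9, 38.8, 60.8 and 40.3 CPM against 17.2, 17.5, 17.7 and 17.6 CPM, with no overlap. Tox, a factor of exhausted T cells, stood at 35.3, 34.9, 36.7 and 35.2 CPM against 50.3, 41.3, 36.8 and 47.1 CPM, and its log2 fold change was -0.26 with a standard error of 0.15 and an adjusted p of 0.34 by edgeR's quasi-likelihood test.

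Among adhesion genes, 6 of 14 were higher, 2 were lower, 3 did not pass and 3 were too low to be tested, beside 7.05% higher and 4.67% lower over all genes tested. The chains of LFA-1, Itgal and Itgb2, were higher at log2 fold changes of 0.52 and 0.57. Itgae, which encodes the CD103 chain that binds E-cadherin, was lower, at 9.50, 10.3, 2.53 and 3.10 CPM against 37.9, 29.8, 21.0 and 29.5 CPM, and its partner Itgb7 was lower at -0.44. Both were lower in each of the 4 libraries. The follicle homing receptor Cxcr5, listed among genes of CD4 helper cells, was higher at 17.6, 10.4, 16.5 and 20.7 CPM against 3.87, 5.56, 6.06 and 3.16 CPM, and was detected in 5.62% of memory-like cells. Cxcr5 had 54 UMIs in memory-like and 45 in Ccl5-zero cells. It thus entered the test through the memory-like class alone, and its call is a description.

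Of 13 proliferation genes, 7 were higher, 1 was lower and 5 did not pass, and the differences were small. Hmgb2 had a log2 fold change of 0.67, and Top2a, a topoisomerase of dividing cells, had 0.65 but rested on few cells, 6 of which held 50% of its UMIs in memory-like cells, and was not called without the CK library (0.47). Mki67 did not pass, at 15.9 ± 16.0 CPM against 15.0 ± 5.51 CPM, and was detected in 3.57% of memory-like cells against 36.4% to 49% of annotated GC B cells. Of 14 interferon-stimulated genes, 1 was higher (Ifit3), 3 were lower, among them Ifi27l2a and Gbp2, and 10 did not pass. Ifit3 was not called without the K library (0.49). Ifi27l2a stood at 232, 289.7, 383 and 253 CPM against 349, 437, 485 and 393 CPM, lower in each library while the class ranges overlap. Of 12 immediate early genes, Zfp36 was lower, though not in 14 of 17 alternative settings, 6 did not pass and 5 were too low to be tested. Over all genes tested, 7.05% were higher and 4.67% lower. The 1 higher interferon-stimulated gene and the 1 lower immediate early gene lie near those shares and are no result about their lists.

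Hba-a1, the most decreased gene by this rule, is a globin of red blood cells, and 877 and 718 of the Hba-a1 and Hba-a2 UMIs in Ccl5-zero cells came from 1 cell each. Its Ccl5-zero level was 299 CPM in C, 409 CPM in K, 1.29 CPM in WT and 1.05 CPM in CK, and its difference was not called by DESeq2. Ramp1, Rgcc and Selenop were instead lower in each library. Ramp1, part of the receptor for the neuropeptide CGRP, stood at 13.6, 14.2, 11.4 and 14.5 CPM against 103, 106, 112 and 118 CPM.

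B cell transcripts were found in most CD8 cells of both classes. The 12 B cell genes summed to 1308 to 1606 CPM in memory-like and 1584 to 2177 CPM in Ccl5-zero cells, and 8 of them, among them Cd74, Igkc and Ighm, were lower in memory-like cells and 1 was higher. Ighm was not called without the CK library (-0.18). Igkc was detected in 80.9% of memory-like and 79.9% of Ccl5-zero cells, Cd74 in 71.8% and 73.7%, and Ighm in 60.8% and 59.5%. CPM is scaled to all UMIs of a class and memory-like cells held more UMIs each, so a lower CPM need not mean fewer B cell UMIs per cell. Whether these genes differed per cell was not tested. Of 8 myeloid genes, Lyz2, Csf1r, Cd14, S100a8 and S100a9 had no UMI in memory-like cells, and the list summed to 89.97 to 130.3 CPM. Of 7 genes of plasmacytoid dendritic cells, Siglech and Klk1 had no UMI in memory-like cells, and 3 genes including Ccr9 were lower. Of 5 genes of NKT and MAIT cells, Zbtb16, Klrb1b and Trav11 had no UMI in either class. With no Cd79 UMI allowed, 403 genes were higher and 244 lower in memory-like cells, of which 382 and 220 were called in the same direction with the limits of the rule.

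The promoters of a few genes are shown because Eomes and Tbx21, both higher, bind T-box motifs, and Runx3, which keeps CD8 identity, binds Runx motifs. Windows run from 250 bases before to 50 after the gene start, from RefSeq on GRCm38.p6, 5′ to 3′ on the gene's strand. The letters TCACACC or GGTGTGA (T-box) and TGTGGTT or AACCACA (Runx), which do not overlap each other here, are in capitals.
Nkg7, chr7:43436888-43437187, plus strand: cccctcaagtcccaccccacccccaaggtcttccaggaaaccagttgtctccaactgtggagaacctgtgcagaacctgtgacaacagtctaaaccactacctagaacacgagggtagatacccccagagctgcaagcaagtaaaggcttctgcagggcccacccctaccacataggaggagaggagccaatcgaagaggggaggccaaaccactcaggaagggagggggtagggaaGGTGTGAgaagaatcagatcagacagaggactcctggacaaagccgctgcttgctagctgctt
Pglyrp1, chr7:18884440-18884739, plus strand: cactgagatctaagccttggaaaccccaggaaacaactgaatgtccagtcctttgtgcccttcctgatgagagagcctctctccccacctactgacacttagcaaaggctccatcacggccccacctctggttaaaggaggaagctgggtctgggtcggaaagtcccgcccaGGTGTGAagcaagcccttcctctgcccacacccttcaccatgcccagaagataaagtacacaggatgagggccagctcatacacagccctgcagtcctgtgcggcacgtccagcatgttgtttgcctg
Gzma, chr13:113100932-113101231, minus strand: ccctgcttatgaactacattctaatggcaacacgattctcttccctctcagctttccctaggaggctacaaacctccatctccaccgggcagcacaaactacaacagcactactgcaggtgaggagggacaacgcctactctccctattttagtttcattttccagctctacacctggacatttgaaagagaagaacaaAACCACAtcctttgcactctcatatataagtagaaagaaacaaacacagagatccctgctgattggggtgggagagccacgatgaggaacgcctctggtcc
The match starts 13 bases before the gene start in Nkg7, 78 before in Pglyrp1 and 51 before in Gzma. T-box letters were found for 29 of 458 higher genes with a promoter in the table (6.33%), for 12 of 301 lower genes (3.99%) and for 256 of 6730 tested genes (3.80%), and in 3.98% of all 32851 promoters. Runx letters were found for 7.64% of higher and 7.64% of lower genes, for 4.61% of tested genes and in 5.27% of all promoters. A match is a description of the letters and not of binding.

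Crebbp and Kmt2d were checked in the CD8 cells before the genotypes were compared. Crebbp stood at 73.3, 67.2, 57.0 and 47.6 CPM in memory-like cells of WT, C, K and CK, from 45 to 54 UMIs, and at 71.0, 79.1, 42.4 and 63.9 CPM in Ccl5-zero cells. Kmt2d stood at 23.1, 34.9, 24.1 and 28.9 CPM in memory-like cells, from 17 to 28 UMIs, and at 30.1, 24.2, 16.3 and 28.1 CPM in Ccl5-zero cells. In memory-like cells the interval of Crebbp over WT included 0 on the log2 scale in C and K and ran from -1.22 to -0.03 in CK, and that of Kmt2d included 0 in each mutant. In Ccl5-zero cells both genes were lower than WT in K, with log2 ratios of -0.74 for Crebbp (-1.13 to -0.37) and -0.88 for Kmt2d (-1.51 to -0.28), and their intervals included 0 in C and CK. Reads of the 3′ end need not cover a deleted exon, so these values are no check of the alleles.

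Memory-like cells of the K library differed from WT in composition. The median log2 ratio over WT was -0.19 in K over 5936 genes, 0.03 in C over 6191 and 0.02 in CK over 6496. It was -0.20 in Ccl5-zero cells of K. Among genes that reached 20 UMIs in a mutant and WT summed, those past 2-fold were 3.81%, 12.4% and 4.54% for C, K and CK. Values of K are therefore given beside its median of -0.19.

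List totals of memory-like cells were compared with WT as a description. The cytotoxic list summed to 1918, 1724, 2128 and 1951 CPM in WT, C, K and CK, which is -0.15 on the log2 scale in C (interval -0.26 to -0.04), 0.15 in K (0.05 to 0.25) and 0.02 in CK (-0.08 to 0.13). The effector list summed to 2607, 2261, 2629.5 and 2859.6 CPM, with -0.21 in C (-0.30 to -0.11), 0.01 in K (-0.08 to 0.10) and 0.13 in CK (0.05 to 0.22). The naive list summed to 4667.5, 4747.5, 3755 and 4412.5 CPM, with 0.02 in C, -0.31 in K (-0.39 to -0.24) and -0.08 in CK (-0.15 to -0.02). The list of IL-2 and IL-15 signalling summed to 1984, 2094, 1554 and 1995 CPM, with 0.08 in C (-0.03 to 0.18), -0.35 in K (-0.46 to -0.24) and 0.01 in CK (-0.09 to 0.11), and in Ccl5-zero cells of K it was at -0.44 (-0.51 to -0.37). The central and virtual memory list and the inhibitory list had intervals that included 0 in each mutant. The C value of the cytotoxic list was 0.25 when the median over its 12 genes with at least 20 UMIs was taken in place of the sum, to which Gzma contributed.

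**Figure D5:**
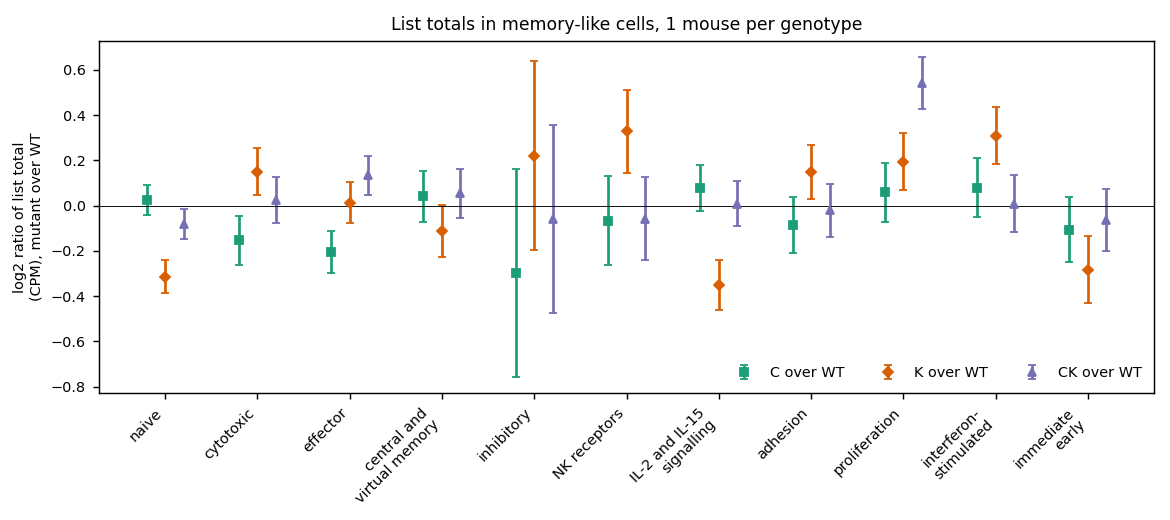
Points are log2 ratios of each list's summed level in memory-like cells of C, K and CK over WT, from 1 mouse per genotype, and bars are exact 95% intervals that cover counting error only. The proliferation list in CK, at 0.54, and the interferon-stimulated list in K, at 0.31, lie above 0 with their intervals.

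The proliferation list summed to 1245, 1297, 1424 and 1811 CPM, which is 0.06 in C (-0.07 to 0.19), 0.19 in K (0.07 to 0.32) and 0.54 in CK (0.43 to 0.66). In CK, 6 of its 13 genes with at least 20 UMIs were past 2-fold above WT and none below, and the count was the same in Ccl5-zero cells, with medians of 0.81 in memory-like and 0.90 in Ccl5-zero cells. Relative to the same ratio in Ccl5-zero cells the CK value was 0.22, and with cells thinned to 1000 UMIs it was 0.27. Without cells that held a gamma-delta transcript the CK value was 0.73. Over all genes, 4.54% were past 2-fold in CK memory-like cells, in either direction, and 2.39% in CK Ccl5-zero cells. For Cdk1, Ccnb2, Mki67, Top2a, Birc5 and Rrm2, 4 to 8 memory-like cells of the 4 libraries held 50% of the UMIs. For Mcm3 and Tubb5, 48 and 209 cells did. Genes carried by the same few cells are not separate observations, and the interval does not cover this. The interferon-stimulated list summed to 1217, 1287, 1509 and 1224 CPM, with 0.31 in K (0.18 to 0.44), where 4 of 13 genes were past 2-fold above WT. Isg15 stood at 39.4, 47.9, 156 and 58.9 CPM in memory-like cells and at 60.7, 69.5, 65.7 and 90.2 CPM in Ccl5-zero cells, so the K library was high in memory-like cells only. The NK receptor list summed to 586, 559.97, 736 and 563 CPM, with 0.33 in K (0.15 to 0.51), and 0.08 in K with cells thinned.

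By size, among genes for which all 3 mutants lay to one side of WT, those with the highest CK over WT ratio were Pclaf, Stmn1, Dut, Vdac3 and H2afx, and those with the lowest were Gm47283, Neat1, Rsrp1, Sash3 and AC149090.1. Pclaf, a factor of DNA replication, stood at 31.2, 40.1, 53.2 and 103.4 CPM in WT, C, K and CK, and Stmn1, a regulator of microtubules in dividing cells, at 69.2, 73.7, 105 and 195 CPM. In CK their log2 ratios were 1.73 (1.06 to 2.45) and 1.50 (1.04 to 1.97), and in Ccl5-zero cells 1.02 (0.63 to 1.44) and 0.90 (0.62 to 1.20). Gm47283, an unnamed locus on chromosome Y, stood at 176, 50.4, 53.2 and 40.3 CPM, with a log2 ratio in CK of -2.13 (-2.68 to -1.60), and was also highest in WT among Ccl5-zero cells, at 196, 52.0, 57.8 and 39.7 CPM, with -2.31 in CK (-2.62 to -2.01). The nuclear RNA Neat1 stood at 121, 59.5, 92.5 and 55.8 CPM, with -1.11 (-1.63 to -0.61), and its Ccl5-zero value in CK was -0.27 (-0.55 to 0.01). WT was the extreme library for each of these 10 genes by the rule, and with 1 mouse a genotype the WT mouse and the WT genotype cannot be told apart.

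Among genes that set memory-like apart from Ccl5-zero cells, Ctla2a was 0.38 to 0.57 above WT on the log2 scale in each of the 3 mutants and Xcl1 0.65 to 0.82 above, with intervals above 0. Both were chosen after their values were seen. In Ccl5-zero cells the interval of Ctla2a lay above 0 in K alone, at 0.57 (0.18 to 0.97), and that of Xcl1 in C alone, at 3.23 (2.34 to 4.28). Itgb1 was lower than WT by -0.87 in K (-1.24 to -0.52) and S100a6 was higher by 0.62 in CK (0.40 to 0.84). Ccl5-zero cells of the same libraries shifted the same way, with -0.95 for Itgb1 in K (-1.52 to -0.41) and 0.93 for S100a6 in CK (0.26 to 1.64). Eomes, Cxcr3, Il2rb and Tox had intervals that included 0 in each mutant.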

How the data were processed

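Single-cell RNA-seq libraries of 3′ ends were made from sorted splenic B220+IgD- cells of 4 mice. The deposited matrices hold counts, raw UMIs per gene and barcode, which the authors made with Cell Ranger (3.0.2 per the file headers, 3.0 per the submitters' processing notes, which also name mm10). Of the deposited cell table only barcodes and genotype were used. No authors' cell type was given here for T cells.

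The members, gene lists and marker lists were chosen with earlier results of these data known. Libraries held 33270825 to 39803865 UMIs. Memory-like sums held 736792 to 967258 UMIs, and Ccl5-zero sums 2145330 to 2847855. Libraries shared 17 to 31 barcodes a pair, and 10 members had a barcode found in another library, none of them a member there. Possible doublets were kept, and Scrublet (scanpy 1.11.5) called 3.32% to 5.01% of barcodes per library and 1 member.

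Sums were tested with edgeR 4.0.16 (filterByExpr, TMM, glmQLFit and glmQLFTest, library as a block, Benjamini-Hochberg adjustment over all genes tested). Genes of the rule, the other label markers and mitochondrial genes received no test. The step was tested on simulated counts for memory-like over Ccl5-zero cells, over 8431 genes. DESeq2 1.42.0 and limma 3.58.1 served as alternatives. Intervals were exact Clopper-Pearson for shares, exact Poisson for sums and exact conditional binomial for ratios. Ratios between genotypes used 3 counts in place of a 0. UMIs of a gene often come from few cells, which these intervals do not cover.

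Named genes were those of the lists, plus the 10 highest and 10 lowest log2 fold changes among genes past adjusted p 0.05 with the same direction in 4 of 4 libraries and at least 100 CPM in one class. For genotypes they were the 5 highest and 5 lowest CK over WT ratios with at least 50 UMIs over both libraries and 100 CPM in one, where C and K moved from WT as CK did. Immunoglobulin, T cell receptor variable, mitochondrial and rule genes were left out. Robust quasi-likelihood, limma-voom and leaving out cells with gamma-delta transcripts were chosen after seeing the data. A few genes of the lists count among their members but are not reported here.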

Additional observations from a re-analysis of the deposited data

Results flagged for a closer look

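For 10 of 173 listed or named genes, the difference between memory-like and Ccl5-zero cells lay above 0 with its interval in at least 1 library and below 0 with its interval in another. These values are log2 levels of memory-like over Ccl5-zero cells, the intervals cover counting error only, each library is 1 mouse, and the differences between the libraries were not tested. With 173 genes in 4 libraries, some such pairs can arise by counting error.

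The K library stood opposite to others for the interferon-stimulated genes among them. Isg15, a ubiquitin-like protein induced by interferon, was at 1.25 in K, -0.62 in WT, -0.54 in C and -0.61 in CK. Of its 246 UMIs in memory-like cells of all libraries, 16 cells held 50%. Ifit1 was at 0.92 in K and -1.53 in WT, Isg20, an exonuclease, at 0.90 in K and -1.34 in CK, and Bst2, or tetherin, at 0.55 in K and -0.35 in CK. Tyrobp, the adaptor DAP12 of NK and myeloid receptors, was at 3.50 in K and -1.82 in WT.

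The other genes divided the libraries in different ways. Mki67, a marker of cycling cells, was at 0.86 in CK and -2.56 in K. Izumo1r, which encodes folate receptor 4, was at 0.65 in K and -1.26 in C. Cst3, which encodes cystatin C and is abundant in myeloid cells, was at 0.53 in WT, -1.06 in C and -0.49 in CK. Srgn, the granule proteoglycan serglycin, was at 0.38 in WT and 0.36 in K and at -0.31 in C, and Jund at 0.16 in CK and -0.20 in C.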

How the results depend on the processing

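The numbers of genes higher and lower than in Ccl5-zero cells, 598 and 396, were 268 and 92 with DESeq2, 221 and 144 with cells thinned to 1000 UMIs, 202 and 104 with mitochondrial genes under 5% of UMIs, and 403 and 244 with no Cd79 UMI allowed. Without the replicate block of the mouse they were 190 and 106. With 1 library left out they ranged from 412 to 501 and from 250 to 315, the lowest being without the CK library. In the other 8 settings they ranged from 479 to 677 and from 328 to 462, and the ratio of depths was above 1 in each setting it was computed in. The cause of these changes was not tested, but the stricter settings also tested fewer genes or UMIs. Of genes that did not pass, Isg15 was at -0.091 with DESeq2 and -0.55 without K, Mki67 at -0.28 with DESeq2, and from -0.59 without CK to 0.50 without K, and Tyrobp from -0.68 without K to 1.14 without WT, at -1.22 without cells of other lymphocytes and at -0.054 without those with gamma-delta transcripts. Itga4 was at 6.88e-04 thinned and 0.59 at the 5% limit, where Tox was at 0.13.

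Memory-like cells in WT, C, K and CK were 26.0%, 22.9%, 26.3% and 25.4% of CD8 cells with at least 1 Ccl5 UMI asked for, and 15.7%, 14.1%, 17.9% and 14.7% with at least 5. Thinned, they were 12.4%, 10.75%, 15.1% and 11.6%, and at the 5% limit 14.4% in C. Of the list totals over WT on the log2 scale, the cytotoxic list was at -0.28 in C relative to Ccl5-zero cells, at 0.25, 0.27 and 0.28 in C, K and CK as a median over genes, and at 0.34 in K and 0.17 in CK thinned. The naive list in K was at -0.14 relative to Ccl5-zero cells, -0.41 as a median and -0.44 thinned. The effector list was at -0.32 in C, -0.12 in K and 0.23 in CK as a median, and at 0.24 in CK relative to Ccl5-zero cells. The central and virtual memory list was at -0.13 in C as a median and 0.13 in K relative to Ccl5-zero cells, where the IL-2 and IL-15 list stood at 0.089 in K and the proliferation list at -0.041. The inhibitory list in K was at 0.76 thinned.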
